A study of Mus musculus with 12 samples.

Results

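Genes of the mitochondrial respiratory chain that are encoded in the nucleus were described in regulatory T cells (Tregs) of SAMP/YitFC mice, an inbred line with spontaneous ileitis. They were chosen by symbol alone. Names starting with Nduf and a, b, c, s or v with a digit, with Uqcr, with Cox4 to Cox8 or with Atp5 were taken, and Sdha, Sdhb, Sdhc, Sdhd and Cycs were added. Pseudogene names were left out, and a count in at least 1 library was required. The rule found 86 of the 26609 genes in the count table. They are 35 genes of complex I, 4 of complex II, 8 of complex III, 20 of complex IV, 15 of complex V, the electron carrier gene Cycs, and 3 that match by name only. Those 3 are Cox4nb, now called Emc8, a membrane protein insertion gene, and Atp5s and Atp5sl, now Dmac2l and Dmac2, which are not subunits. Symbols are those of the deposited table. Ndufa4 is counted with complex IV, where its protein is now placed.

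The 12 libraries fall into 4 groups of 3: wild type (SAMP/YitFC-WT) males and females, and males and females of the line SAMP/YitFC-ERb-KO, which lacks estrogen receptor beta, the product of Esr2. All mice were untreated, and no age is given in the labels used here. The labels name no Cre or tissue-restricted deletion. Cells were sorted as CD4+CD25hiCD127lo singlets from mesenteric lymph nodes, although the labels call them intestinal. Polyadenylated RNA was turned into cDNA with SMART-Seq v4, whose full-length cDNA was fragmented with Nextera XT, and this does not mark the strand. The labels do not tie each library to its own mouse, so p-values measure the spread between libraries, which may be technical. Total counts ran from 10200506 to 16748380 per library. Of the sort markers, Il2ra (CD25) had 788 ± 161 and Cd4 had 607 ± 78.7 CPM (SD, n = 12). CPM is the count of a gene per M counts of its library. The level of Il7r, which encodes CD127, is not given here. Foxp3, a Treg factor that was not sorted on, had 755 ± 122 CPM.

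The labels were contradicted in part. The Y-linked genes and Xist went against the titled sex in 4 libraries, WT female 2, KO male 1, KO male 2 and KO female 1, and Esr2 counts did not follow the titled genotype (0 to 159 in WT-labelled and 2 to 161 in KO-labelled libraries). Sex and genotype below are therefore those of the titles, and each comparison is also given without these 4 mismatched libraries. In bulk samples, fewer cells of a type and less RNA per cell cannot be told apart.

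The respiratory chain sits in the inner mitochondrial membrane. Complex I takes electrons from NADH and complex II from succinate, both pass them through ubiquinone to complex III, cytochrome c carries them to complex IV, where oxygen is reduced, and the proton gradient that complexes I, III and IV build drives ATP synthesis by complex V. Most subunits are encoded in the nucleus and the rest in mitochondrial DNA. Tregs are known to rely on oxidative phosphorylation more than other activated CD4+ T cells do.

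Nearly the whole chain was transcribed at substantial levels in these cells. The 86 genes summed to 9143 ± 1178 CPM (SD, n = 12), with 3448 ± 599.8 CPM from complex V, 2624 ± 313 from complex I, 1128 ± 181 from complex IV, 956 ± 145 from complex III, 789 ± 157 from complex II and 80.3 ± 12.7 from Cycs. A low-count filter (edgeR's filterByExpr) kept 77 of the 86 among 13692 genes. The 9 that it removed are Sdhd, Uqcr11 and 7 tissue-restricted isoforms of complex IV. To compare levels between genes, CPM were divided by transcript length in kilobases (kb; GENCODE M21 on GRCm38).

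**Figure D1:**
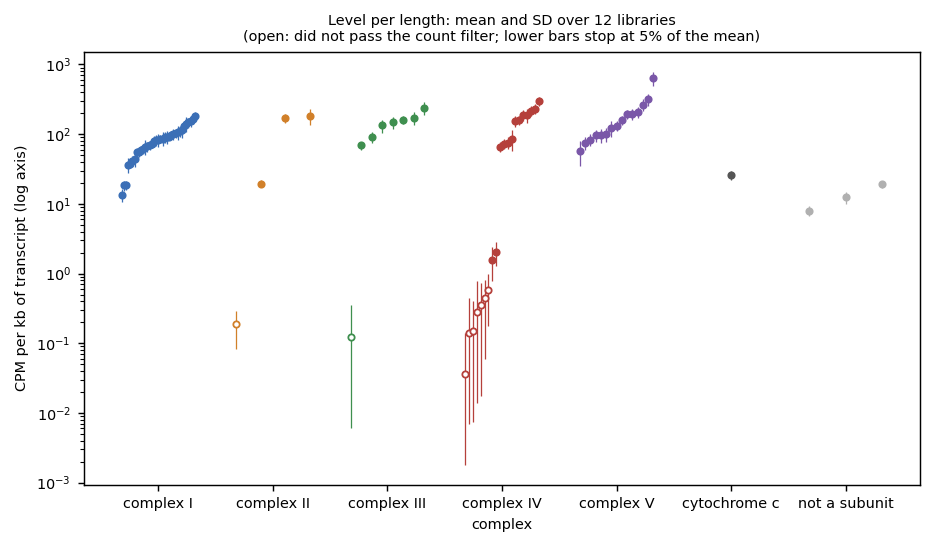
Mean level of each gene per kb of transcript (log axis, CPM per kb) by complex, with bars of 1 SD over 12 libraries. Open points are the 9 genes that did not pass the count filter. Atp5b stands at the top with 639, and the muscle and germline isoforms of complex IV, with Sdhd, Uqcr11 and Cox7a2, stand below 3.

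Complex I had no gap among its 35 genes, all of which passed the filter. The 7 core subunits measured hold the flavin and iron-sulfur clusters. Among them Ndufs7, which carries the cluster next to the quinone site, was highest with 165 ± 25.7 CPM per kb, and Ndufs1, the largest subunit, was lowest with 60.7 ± 9.17. The 28 accessory subunits ranged from 181 ± 23.2 for Ndufb8 to 13.4 ± 2.79 for Ndufa8, with Ndufa12 at 18.6 ± 2.86 and Ndufa6 at 18.3 ± 3.26 nearby. The median per kb was 85.98 for core and 83.2 for accessory genes. Ndufa9, Sdhc of complex II and Atp5sl had the smallest SD of log2 CPM over the 12 libraries among tested members, 0.16 each, and Ndufa9 lay between 118 and 162 CPM. Cox7a1, Cox7a2 and Atp5k had the largest, 0.82, 0.55 and 0.50.

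Complex II was uneven. The catalytic genes Sdha, the flavoprotein, and Sdhb, the iron-sulfur subunit, stood at 184 ± 48.4 and 169 ± 26.1 CPM per kb, a difference within their spread. Of the membrane anchors, Sdhc reached 19.5 ± 2.25 CPM per kb, and Sdhd had 39 counts over all 12 libraries, or at most 0.527 CPM in any of them. Sdhd (chromosome 9, 50596357 to 50603812, minus strand) has an annotated transcript of 1231 bases in 4 exons. The protein of Sdhd is needed for complex II in all tissues as far as is known.

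In complex III the core subunit Uqcrc1 was highest with 238 ± 49.2 CPM per kb, and the small subunit Uqcrq followed with 170.5 ± 34.7. The Rieske iron-sulfur gene Uqcrfs1 was lowest of the tested genes with 68.9 ± 8.97. Uqcr11, another small subunit, had 10 counts in all, found in 5 libraries.

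Complex IV used the common isoform of each pair. Cox4i1, the regulatory subunit 4 of most tissues, had 297 ± 41.3 CPM per kb, while Cox4i2, its lung and hypoxia isoform, stayed below 1 CPM in each library with 54 counts over all 12. Cox6a1 had 229 ± 37.0 CPM per kb against 36 counts in all for Cox6a2, the heart and muscle form. Cox6b1 had 189 ± 34.2 against 51 counts for the testis form Cox6b2. Cox7b had 75.6 ± 14.6 against 12 counts for Cox7b2, and Cox8a had 189 ± 43.9 against 9 and 20 counts for Cox8b and Cox8c. Ndufa4 reached 218 ± 36.5 and its paralogue Ndufa4l2 had 6 counts. Subunit 7a broke this pattern. Cox7a2, the form of most tissues, had only 2.06 ± 0.80 CPM per kb, next to 1.59 ± 0.811 for the muscle form Cox7a1, a difference within their spread, while Cox7a2l, a relative that joins complexes III and IV into supercomplexes, had 66.1 ± 10.8.

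Complex V held the most abundant genes of the set. Atp5b and Atp5a1, the beta and alpha subunits of the catalytic head, reached 639 ± 151 and 315 ± 63.8 CPM per kb, and Atp5c1, the gamma subunit of the rotor shaft, 210.5 ± 37.5. The epsilon subunit Atp5e and the delta subunit Atp5d of the same head had 123 ± 32.2 and 99.6 ± 21.3. Atp5g1, Atp5g2 and Atp5g3 encode the same mature c-ring protein. Atp5g3 had the highest level with 266 ± 54.5, above Atp5g2 with 97.2 ± 22.0 and Atp5g1 with 96.6 ± 19.7, which did not differ beyond their spread. Near-identical copies at 99% identity or more exist for Atp5g2 (2) and Atp5g1 (1) and not for Atp5g3. The order of these 3 genes is therefore uncertain. The peripheral stalk genes Atp5j, Atp5h, Atp5o and Atp5f1 lay between 133 and 196, and the small membrane subunits Atp5k, Atp5l and Atp5j2 between 58.1 and 82.8. Cycs had 25.7 ± 4.06, and the name matches Atp5sl, Cox4nb and Atp5s had 19.2 ± 2.15, 12.4 ± 2.50 and 8.01 ± 1.25.

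Sdhd, Uqcr11 and Cox7a2 stand out because their proteins belong to the complexes of most cells. No other annotated transcript matched theirs at 95% identity or more over at least 50% of the length, and none of their exonic bases lies in an exon of another GENCODE M21 gene. The annotation release behind the counts is not given in the labels, and why these 3 genes have so few counts was not tested. Shared sequence does touch other members. A near-identical copy by the same rule exists for 13 tested members, with 9 copies for Atp5l, 3 each for Atp5h and Uqcrb, and 1 for Cox7c (Gm10012), so counts of those genes are uncertain. For the 5 copies with a row of their own, levels were at most 3.47 CPM, in BC002163, a copy of Ndufs5. In addition 30 of the 86 members, 28 of them tested, share exonic bases with another gene, from which unstranded reads cannot be told apart. The share exceeded 10% for 11 members, led by Atp5o with 43.8%, Ndufb6 with 39.0% and Ndufa13 with 30.0%.

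The genes did not vary independently from library to library. For each tested member, the deviation of its log2 CPM from its own mean over 12 libraries was taken, and the median over the 77 members was +0.30 and +0.26 in WT male 1 and 2 and -0.13 in WT male 3. In WT female 1, 2 and 3 it was -0.23, -0.07 and -0.25. KO male 1, 2 and 3 gave +0.27, +0.09 and -0.22, and KO female 1, 2 and 3 gave -0.05, +0.05 and +0.08. The same median over all 13692 genes lay between +0.01 and +0.05 in every library. In WT male 1, 75 of 77 members were above their own mean, in WT male 2 it was 74 and in WT male 3 only 9. WT male and KO male libraries thus spanned nearly the full range of the set, and the WT female libraries were all below 0. For 34 of 77 members (44.2%) the highest 3 libraries were WT male 1, WT male 2 and KO male 1, which held for 3.43% of all tested genes. For 19 members (24.7%, against 1.29% of all genes) the lowest 3 were WT female 1, WT female 3 and KO male 3.

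**Figure D2:**
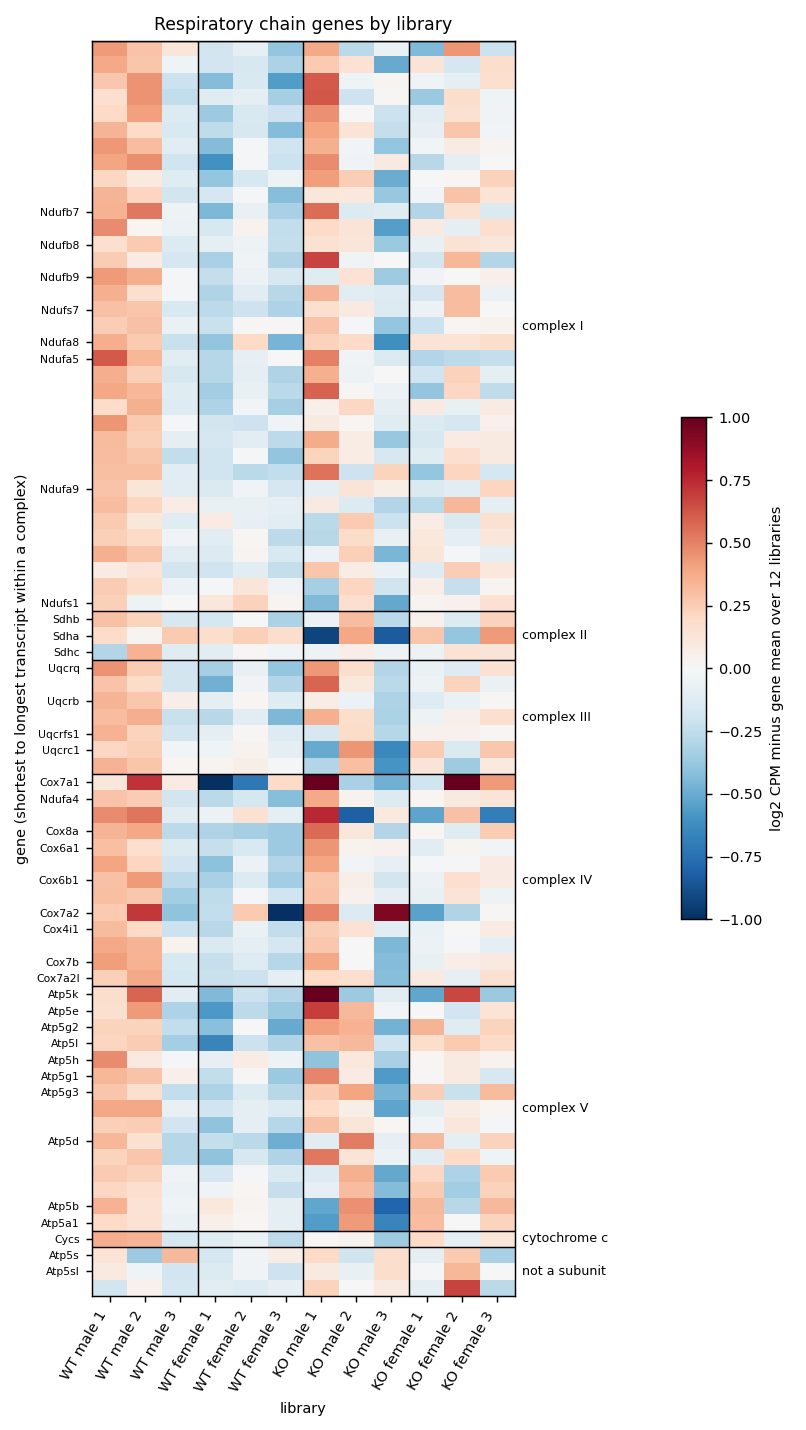
Deviation of each tested gene from its own mean (log2 CPM, colour, with values past 1 in either direction drawn at 1) in each of 12 libraries, ordered by complex and from the shortest to the longest transcript within it, with names for part of the genes. Most genes are red in WT male 1 and 2 and blue in WT female 1 and 3, and in KO male 1 most short genes are red while long ones such as Sdha, Atp5b, Uqcrc1 and Ndufs1 are blue.

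A group of large catalytic genes followed another order. Sdha (chromosome 13, 74322254 to 74350280, minus strand, 15 exons) had 580.2, 522 and 613 CPM in WT males and 578, 606 and 577 in WT females. It had 270.4, 669 and 288 CPM in KO males and 621, 391 and 686 in KO females. KO male 1, KO male 3 and KO female 2 were therefore far below the other 9 libraries, which overlapped between all 4 groups. Atp5b (chromosome 10, 128083273 to 128090391, plus strand, 10 exons) had 1511, 1314 and 1156 CPM in WT males and 1279.8, 1212 and 1115 in WT females. The KO males had 830.1, 1633 and 688 and the KO females 1488, 983 and 1488. Uqcrc1 (chromosome 9, 108936633 to 108949623) had 272 and 247 CPM in KO male 1 and 3 and 349.6 in KO female 2, against 361 to 524 elsewhere. The same 3 libraries were also lowest for Atp5b, Uqcrc2, another core subunit of complex III, and Ndufa10, an accessory subunit of complex I.

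Partners within a complex shifted against each other in KO male 1 and KO male 3, and in KO female 2 for 1 of 3 ratios. The ratio of Sdha to Sdhb in CPM was 1.47 in KO male 1, 1.82 in KO male 3 and 2.25 in KO female 2, and 2.34 to 3.76 in the other 9 libraries. Atp5b over Atp5e, the short epsilon subunit of the same head, was 10.3 in KO male 1 and 13.99 in KO male 3, against 19.5 to 37.98 elsewhere. Ndufs1 over Ndufa13 was 0.767 in KO male 1 and 0.914 in KO male 3, against 1.19 to 2.14 elsewhere. KO female 2 lay inside the range of the others for both, with 22.3 and 1.35. Short genes had the opposite order in KO male 1. Atp5e had 80.9 CPM there and 33.7 to 67.2 in the other libraries, Atp5k had 40.6 against 14.2 to 32.3, and Cox7c had 74.2 against 24.9 to 63.8. KO male 1 was the highest library for all 3 of these genes.

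**Figure D3:**
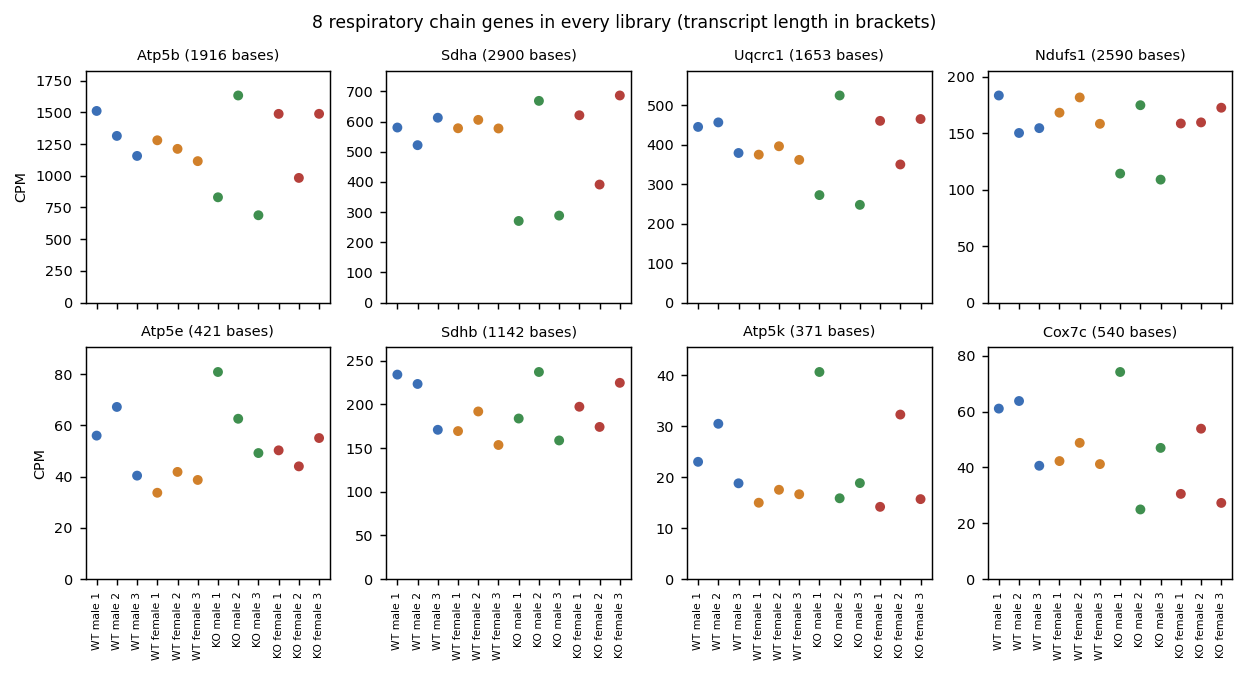
CPM (vertical axes from 0) of 8 genes in each of the 12 libraries, coloured by group, with transcript length in the panel titles. Sdha, Atp5b, Uqcrc1 and Ndufs1 dip in KO male 1 and KO male 3, while Atp5e, Atp5k and Cox7c peak in KO male 1.

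Transcript length moved with the values of KO male 1, both in the members and over all tested genes. The 26 shortest members (315 to 623 bases) and the 26 longest (1076 to 4942 bases) differed in their median deviation by -0.50 in KO male 1, long minus short, and by +0.24 and +0.21 in WT female 1 and 3. Over all tested genes of up to 623 bases (461) and of 1076 bases or more (11752), members included, the difference was -0.62 in KO male 1. It was +0.34 and +0.24 in WT female 1 and 3. In WT male 1 and 2 it was -0.05 and -0.09 in members and -0.27 in both over all genes. In KO male 3 it was -0.08 in members and -0.04 over all genes, and in KO female 2 it was -0.14 and -0.12. The part of transcript length in the members' values was not tested.

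Promoter sequences of the members were searched for the motifs of 4 factors. RefSeq (GRCm38.p6) promoters, from 250 bases before to 50 after the start, matched 70 of 86 members. Among those without an entry were Ndufb9, Ndufs1, Sdhc, Uqcrc2, Uqcrq, Uqcrb, Cox4i1 and Atp5a1. On either strand, the 10-base palindrome of NRF1, the nuclear respiratory factor known to regulate respiratory chain genes, was in 5 of 70 members (7.14%), 2.33% of tested genes and 1.07% of all genes with a promoter of the same length. AAGATGGC, a core of YY1 sites, was in 11 members (15.7%, against 5.03% and 3.19%). Its match lies after the RefSeq start in Ndufa3, Ndufa9, Ndufb8, Ndufc1, Ndufs4, Ndufs6, Ndufs7 and Atp5j2, and after a RefSeq start of Atp5sl. CCGGAAG, a core of ETS family sites including GABPA, was in 16 (22.9%, against 19.6% and 9.93%). The palindromic estrogen response element, the motif of estrogen receptors, was in 0 members, 0 tested genes and 0.074% of all genes. The NRF1 palindrome was in Ndufa11, Uqcrc1, Cox6a1, Atp5g2 and Atp5k. The sequence around the match in 4 of them is shown 5′ to 3′ because they span complexes I, IV and V, with capitals for each match of these 4 motifs. The match in Uqcrc1 lies after its RefSeq start. For Ndufa11 and Cox6a1 the stretch runs through the bases before the start that lie outside exons of coding GENCODE transcripts. In Atp5g2 and Atp5k the match overlaps a first exon of GENCODE, and 10 bases on either side are shown.
Ndufa11 (chr17:56717686-56717761, plus strand): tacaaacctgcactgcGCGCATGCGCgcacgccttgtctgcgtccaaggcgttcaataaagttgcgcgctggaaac
Cox6a1 (chr5:115348982-115349208, minus strand): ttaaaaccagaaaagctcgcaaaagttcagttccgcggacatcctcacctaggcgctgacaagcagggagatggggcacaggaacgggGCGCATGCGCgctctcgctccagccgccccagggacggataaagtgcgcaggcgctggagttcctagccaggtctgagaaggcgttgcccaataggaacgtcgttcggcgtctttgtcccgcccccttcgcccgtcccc
Atp5g2 (chr15:102671070-102671099, minus strand): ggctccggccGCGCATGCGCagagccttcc
Atp5k (chr5:108434430-108434459, minus strand): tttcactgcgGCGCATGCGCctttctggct
The NRF1 match begins 60 bases before the RefSeq start in Ndufa11, 162 in Cox6a1, 42 in Atp5g2 and 50 in Atp5k. The palindrome is the only match of the 4 motifs in these stretches. Outside them, Cox6a1 has a CCGGAAG match that begins 16 bases before its start, and Atp5k has a CCGGAAG match after its start. All 4 genes shown were highest in KO male 1, which was the highest library for 25 of 77 tested members (32.5%, against 14.5% of all tested genes). They are among the 26 shortest members, whose median deviation in KO male 1 was +0.42, against -0.07 for the 26 longest. Uqcrc1, the fifth gene with the palindrome, is among the longest. It had 272 CPM in KO male 1, its second lowest level, and was highest in KO male 2 with 524. The part of the palindrome in these levels was not tested. Cox6a1 was lowest in WT female 3 with 101 CPM and highest in KO male 1 with 176, and Ndufa11 likewise with 44.4 and 78.8. Atp5g2 was lowest in WT female 3 with 29.4 and highest in KO male 1 with 55.4, and Atp5k was lowest in KO female 1 with 14.2 and had 40.6 in KO male 1.

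No member passed an adjusted p of 0.05 (edgeR's quasi-likelihood test, Benjamini-Hochberg over 13692 genes) in any of the 6 comparisons of sex and genotype. DESeq2 and limma on the authors' log2 values also called 0 members in all 6. At an unadjusted p under 0.05, edgeR, DESeq2 and limma in turn had 3, 4 and 2 members for KO minus WT in females and 3, 0 and 3 in males. They had 1 each for both sexes averaged, 23, 22 and 14 for female minus male in WT, 0 each for female minus male in KO and 1 each for the interaction. The share of all genes called for KO minus WT was 0% within females, 0.073% within males and 1.5% for both sexes averaged, and 0% for female minus male in WT, for female minus male in KO and for the interaction. The comparisons share libraries, so their values for the members are not independent of each other.

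Female minus male in WT had the same sign in nearly all members. Of 77 members, 75 had a negative log2 fold change, with a median of -0.34, where 49.3% of all genes were negative and their median was 0.01. The 2 positive members were Ndufs1 and Sdha, at 0.06 and 0.04. At an unadjusted p under 0.05, 23 members were lower (29.9%, against 2.48% of all genes) and 0 higher (against 4.05%). Ndufb7, an accessory subunit of complex I, had 109.7, 124 and 83.0 CPM in WT males and 62.9, 81.7 and 68.5 in WT females, which do not overlap (log2 fold change -0.57, SE 0.22, adjusted p = 0.72 in edgeR). Ndufs7 (chromosome 10, 80249121 to 80256794) had 152, 149.8 and 111 against 103, 107 and 99.9 CPM (-0.41, SE 0.16, adjusted p = 0.72). Ndufb9 (chromosome 15, 58933756 to 58939488) had 139, 133 and 102 against 87.5, 99.5 and 92.4 CPM (-0.42, SE 0.17, adjusted p = 0.72). In each of the 3 genes WT male 3 lay close above the females and the other males lay well above.

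In all, 19 members did not overlap between WT females and WT males, each lower in females (24.7%, against 8.13% of all genes), and 0 were higher (against 7.55%). By complex they were 12 of 35 in complex I, 1 of 7 in complex III, 3 of 13 in complex IV and 3 of 15 in complex V. Medians were -0.34 for complex I, -0.04 for complex II, -0.29 for complex III, -0.41 for complex IV and -0.37 for complex V. Complex I summed to 3198, 3069.6 and 2428 CPM in WT males and 2292, 2506 and 2247 in WT females, which overlap. Leaving out 1 library moved the median between -0.48 (without WT male 3) and -0.27 (without WT male 1), and without the 4 mismatched libraries it was -0.40 with 74 members negative. With limma voom and quality weights, which gave WT male 3 a weight of 0.509, 5 members passed: Ndufb7 (-0.69, adjusted p = 0.0423), Ndufb9 (-0.48, 0.0472), Atp5e (-0.66, 0.0473), and Cox6b1 and Ndufs7 (-0.55 and -0.47, both 0.0480). They are 6.49% of members, and that fit called 348 genes or 2.54% of all in either direction. The median over the 461 tested genes of the short range, members included, was -0.35 beside -0.44 for the 26 shortest members, while the long range had 0.04 beside -0.20 for the 26 longest members. Markers of other cell types moved with this comparison. All 10 B cell markers were positive, with a median of 3.25, and so were all 10 macrophage markers, with a median of 2.03. Summed B cell markers were 39.9 to 68.1 CPM in WT males and 63.3 to 227 in WT females, and macrophage markers 28.4 to 64.2 and 53.6 to 381. In edgeR 0 of them passed, with 9 B cell and 5 macrophage markers at an unadjusted p under 0.05, and DESeq2 called 5 B cell markers. Of 7 tested neutrophil markers 5 were positive, with a median of 0.19. The part of these markers in the members' values was not tested.

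**Figure D4:**
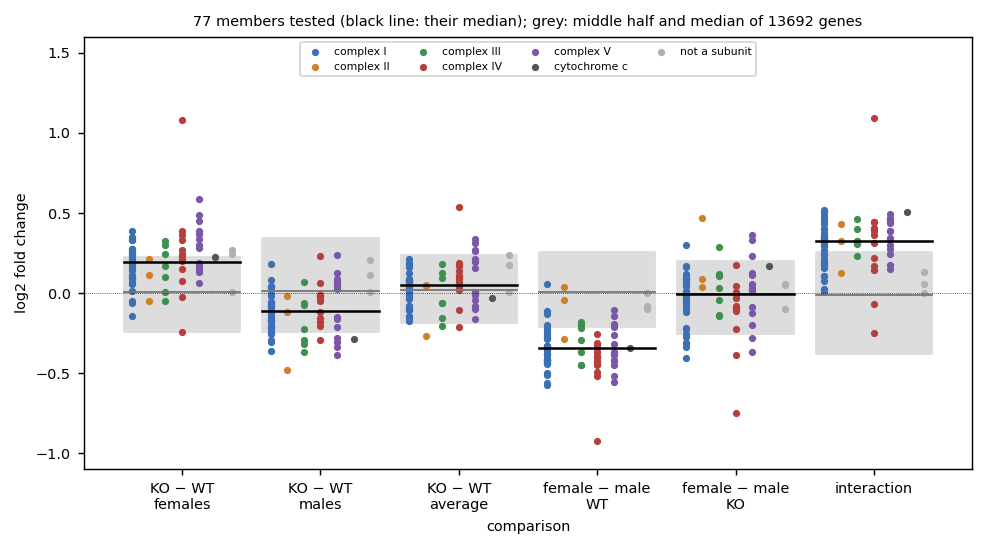
Log2 fold change of each of 77 tested members in 6 comparisons, coloured by complex, with their median as a black line. Grey boxes span the middle 50% of all 13692 genes and grey lines mark their median. The black line sits below the box for female minus male in WT, at -0.34, and above it for the interaction, at 0.33.

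KO minus WT in females had mostly positive values. The sign was positive in 70 of 77 members (51% of all genes), with a median of 0.19 against 0.01 over all genes, and 0 members passed. The 3 members with an unadjusted p under 0.05 were Atp5l, Atp5d and Ndufs7, all higher (3.9%, against 2.94% of all genes), and 0 were lower (against 4.77%). Atp5l, the g subunit of the membrane part (chromosome 9, 44912557 to 44920742), had 25.3, 34.5 and 32.6 CPM in WT females and 45.2, 48.0 and 45.7 in KO females, which do not overlap (0.59, SE 0.21, adjusted p = 0.502 in edgeR). Its near-identical copies make that count uncertain. Atp5d, the delta subunit of the catalytic head, had 77.1, 75.4 and 64.7 against 114, 85.0 and 107 CPM (0.49, SE 0.21, adjusted p = 0.61). The KO females were higher without overlap in 21 members (27.3%, against 9.2% of all genes), of which 6 each were in complexes I and V and 7 in complex IV. Complex V had the highest median, 0.28, with all 15 genes positive, and Sdha and Uqcrc2 were at -0.05 each.

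The females' values depended on how libraries were weighted. With limma voom and quality weights, which gave KO female 2 a weight of 0.357 against 3.03 and 2.48 for KO female 1 and 3, 7 members passed upward: Atp5d (0.57, adjusted p = 0.00617), Atp5l (0.62, 0.0103), Atp5g3 (0.50, 0.0150), Atp5g2 (0.58, 0.0207), Cox8a (0.43, 0.0390), Atp5e (0.47, 0.0402) and Ndufa4 (0.35, 0.0438). They are 9.09% of members, and that fit called 1698 genes or 12.4% of all in either direction. Median changes with 1 library left out ran from 0.16 to 0.26, and the median was 0.30 without the 4 mismatched libraries. Summed B cell markers (10 of 10 tested) were 63.3 to 227 CPM in WT and 185 to 406 in KO females, macrophage markers (10 of 10) 53.6 to 381 and 227 to 438, and neutrophil markers (7 of 10) 1.39 to 2.61 and 7.42 to 58.0. None of these lists had a marker at 0 in all 12 libraries, and their part in the members' values was not tested.

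KO minus WT in males had mostly negative values, whose size depended on single WT and KO libraries and whose calls depended on KO male 2. In the fit of all libraries 57 of 77 members were negative (48.8% of all genes), with a median of -0.11 against 0.01, and 0 passed. Atp5h of the peripheral stalk, Ndufb9 and Uqcrb, a small subunit of complex III, had an unadjusted p under 0.05 (3.9%, against 6.3% of all genes), each lower, and 0 were higher (against 7.92%). Atp5h had 167, 127 and 118 CPM in WT and 90.9, 129 and 96.0 in KO males (-0.38, SE 0.17, adjusted p = 0.33 in edgeR). Sdha had the lowest value of the set at -0.48 (SE 0.29, adjusted p = 0.47). Without KO male 3 the median was -0.00, with 39 members negative, and without KO male 1 it was -0.20, with 70. Leaving out WT male 3 gave -0.24 with 72 negative, WT male 1 gave -0.04 with 44, and WT male 2 gave -0.04 with 45. The groups overlapped in every member, while they did not in 6.95% of all genes that were higher and 7.45% that were lower in KO.

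Without KO male 2, 6 members passed, all lower in KO males. KO male 2 had 1016 Xist and 0 Y-linked counts, and KO male 1, which stayed in, had 3864 and 0. The 6 are catalytic or core genes: Sdha (-1.03, adjusted p = 0.0176), Atp5a1 (-0.71, 0.0201), Uqcrc1 (-0.72, 0.0262), Atp5b (-0.81, 0.0333), Ndufs1 (-0.55, 0.0436) and Uqcrc2 (-0.66, 0.0452). They are 7.79% of members, and that fit, which rests on 2 KO males, called 734 of 14315 genes or 5.13% in either direction. Over all the alternatives, the adjusted p of Sdha in males ran from 0.0176 to 0.834. Female minus male in KO moved with the same library, from a median of -0.00 and 0 members called (also 0 at an unadjusted p under 0.05, against 2.03% of all genes higher and 3.24% lower) to 4 called higher in females without it. They are 5.19% of members, and that fit called 324 genes or 2.26% in either direction. The 4 were Sdha (1.03, adjusted p = 0.0229), Atp5a1 (0.80, 0.0184), Uqcrc1 (0.72, 0.0356) and Atp5b (0.80, 0.0449). Without the 4 mismatched libraries, KO males are represented by KO male 3 alone. The male median was then -0.42, against -0.07 over all genes, with 72 members negative, and female minus male in KO had a median of 0.34, against 0.07, with 70 positive. No member passed in that fit. Summed B cell markers were 39.9 to 68.1 CPM in WT and 176 to 334 in KO males, macrophage markers 28.4 to 64.2 and 178 to 373, and neutrophil markers 0.621 to 1.81 and 2.10 to 17.8, and their part was not tested.

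Between KO females and KO males, 2 members did not overlap and were lower in females, Cox6a1 and Ndufa5 (2.6%, against 3.35% of all genes), and 0 were higher (against 3.64%). Ndufa5, an accessory subunit of complex I, had 52.9, 36.5 and 34.0 CPM in KO males and 30.4, 31.2 and 31.7 in KO females (-0.40, SE 0.21, adjusted p = 0.85 in edgeR). Atp5e followed by p-value with -0.37 (SE 0.22) and Ndufs1 with 0.30 (SE 0.18), and both overlapped between the groups.

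Averaged over the sexes, KO minus WT left the set near 0. The median was 0.05 against 0.02 over all genes, 52 members were positive (52.2% of all genes) and 25 negative (47.8%), and 0 passed. The majority turned without the 4 mismatched libraries, to 33 positive and 44 negative with a median of -0.03 against -0.05 over all genes, and without WT male 3, to 35 positive and 42 negative with a median of -0.02 against 0.02. Atp5l alone had an unadjusted p under 0.05, on the higher side (0.34, SE 0.14, adjusted p = 0.26 in edgeR), as did 7.84% of all genes, and 0 members did on the lower side (against 8.11%). Atp5e and Atp5d followed with 0.31 and 0.27 (SE 0.15 and 0.14). The 6 KO-labelled and 6 WT-labelled libraries overlapped in every member, while they did not in 0.971% of all genes that were higher and 1.43% that were lower in KO. The all-member sum was 9183 ± 1203 CPM in WT and 9104 ± 1265 in KO libraries (SD, n = 6). Without KO male 2, 1 member passed, Sdha (-0.54, adjusted p = 0.0366), which is 1.3% of members against 3.79% of the 14315 genes in that fit.

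The interaction (the females' KO effect less the males') was positive in 75 of 77 members (49.3% of all genes) with a median of 0.33 against -0.01. The 2 negative members were Cox7c and Cox7a2. No member passed, and Ndufb9 alone had an unadjusted p under 0.05 (0.52, SE 0.23, adjusted p = 0.90 in edgeR, against 1.37% of all genes higher and 3.45% lower). Cycs followed with 0.51 (SE 0.25). Cytochrome c message was 102, 101 and 70.2 CPM in WT males, 73.2, 75.8 and 66.4 in WT females, 80.6, 81.3 and 62.0 in KO males and 91.0, 74.5 and 86.2 in KO females and every pair of groups overlapped. Medians by complex were 0.32 for I, 0.33 for II, 0.32 for III, 0.36 for IV and 0.39 for V. Leaving out 1 library gave medians from 0.19 to 0.45, with 68 to 77 members positive, and 0.74 without the 4 mismatched libraries, where KO males are 1 library. B cell markers had negative values in 10 of 10, with a median of -2.74 and 6 at an unadjusted p under 0.05 in edgeR, and macrophage markers in 9 of 10, with a median of -1.35 and 4 at that level. None of them passed, and their part in the interaction was not tested.

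**Figure D5:**
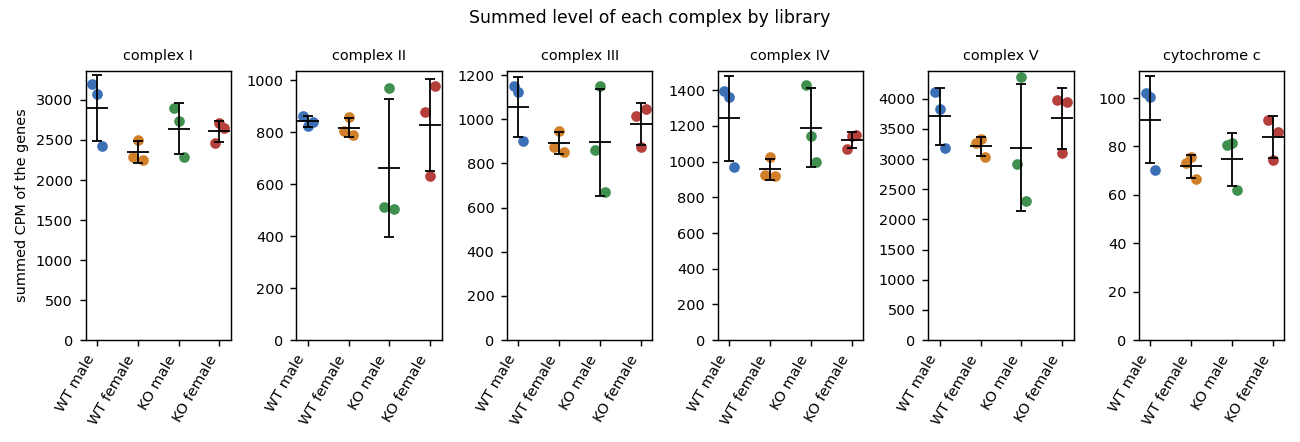
Summed CPM of each complex and of Cycs (vertical axes from 0) in every library, with group means and SD (n = 3). WT males exceed WT females on average in each panel, and KO males spread widest in complexes II, III and V, from 2299 to 4356 CPM in complex V.

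Genes around the chain were read from fixed lists. Among 51 assembly factors (15 for complex I, 4 for II, 6 for III, 21 for IV and 5 for V, of which 49 were tested), 11 ubiquinone synthesis genes and 13 genes of the tricarboxylic acid (TCA) cycle, 0 passed in any comparison in edgeR, and 0 in limma on the authors' log2 values. DESeq2 called 1, the TCA cycle gene Suclg2, between KO and WT males. At an unadjusted p under 0.05 in edgeR, assembly factors reached at most 4 of 49, for the KO minus WT average. There 7.84% of all genes were higher and 8.11% lower at that level. TCA cycle genes reached at most 4 of 13, for KO minus WT in males (7.92% of all genes higher and 6.3% lower). Ubiquinone synthesis genes reached at most 1 of 11 in any comparison. Voom quality weights called Coq2, Coq4 and 3 assembly factors for KO minus WT in females, where 12.4% of all genes were called. They also called 2 assembly factors for female minus male in WT (2.54% of all genes called), and Suclg2 for the KO average. Medians for female minus male in WT were -0.09 for complex I, -0.40 for complex II, -0.25 for complex III, -0.25 for complex IV and -0.21 for complex V factors, -0.08 for the TCA cycle and -0.05 for ubiquinone synthesis. Of the subunits that the name rule misses, Ndufab1, Cyc1, Usmg5 and 2010107E04Rik were tested. They had a median of -0.33 there with 4 of 4 negative, 0.35 for KO minus WT in females and 0.30 in the interaction with 4 of 4 positive in both, and 0.05 for KO minus WT in males with 3 of 4 positive, where the members' median was -0.11. Cyc1, cytochrome c1 of complex III, had 196 ± 29.5 CPM. Of these 4, voom quality weights called Cyc1 alone for KO minus WT in females, where edgeR called 0. The TCA cycle genes, which feed electrons to complexes I and II, summed to 1653, 1609 and 1929 CPM in KO male 1, KO male 3 and KO female 2 and to 2316 to 2756 in the other 9 libraries. These are the libraries in which Sdha, itself a TCA cycle enzyme, was lowest.

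Of 13 nuclear regulators of mitochondrial genes, 1 passed in edgeR, Gabpa, in the KO minus WT average of both sexes, where DESeq2 and both limma fits called it too. DESeq2 also called Gabpa for KO minus WT in males, and voom quality weights called Gabpa for KO minus WT in females and Pprc1, a coactivator of the PGC-1 family, for female minus male in WT. Gabpa, the DNA-binding subunit of an ETS factor known to activate respiratory chain genes, fell by 0.61 on the log2 scale (SE 0.12, adjusted p = 0.0247 in edgeR, where 1.5% of all genes passed). It had 70.7, 69.2 and 93.1 CPM in WT males, 93.4, 91.8 and 109 in WT females, 48.4, 57.1 and 46.1 in KO males and 62.4, 68.9 and 63.9 in KO females. All 6 KO-labelled libraries were below all 6 WT-labelled ones, by a margin of less than 1 CPM. Over 20 alternatives it kept its sign, with adjusted p from 0.00075 to 0.0886. It did not pass in 10 of them. These were the replicate block (0.0886), the fit without the 4 mismatched libraries (0.0763), the fit with both WT male libraries that are titled number 2 summed into 1 (0.0524), and the fits without WT male 3, WT female 1, WT female 2, WT female 3, KO male 3, KO female 1 or KO female 3 (0.0510 to 0.0850). Gabpa starts head to head with the member Atp5j, whose exonic bases overlap those of Gabpa over 12.7% of their length. Atp5j did not pass in the same comparison (-0.08, SE 0.13, adjusted p = 0.82), with 125 to 187 CPM in WT and 99.7 to 165 in KO libraries. Atp5j has another RefSeq start, whose promoter (chr16:84835576-84835875) holds no match of the 4 motifs. Between the RefSeq start of Gabpa and the Atp5j start used here, a run of 100 bases lies outside exons of coding GENCODE transcripts. Read on the strand of Atp5j, it holds 1 AAGATGGC and 1 CCGGAAG, in capitals.
Atp5j (chr16:84835024-84835123, minus strand): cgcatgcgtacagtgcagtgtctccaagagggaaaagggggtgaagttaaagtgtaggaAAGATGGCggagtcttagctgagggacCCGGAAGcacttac
Of the 16 members with CCGGAAG in their promoter, 14 were tested. Atp5l alone had an unadjusted p under 0.05 in edgeR for the KO minus WT average, and it was higher in KO. At that level 7.84% of all genes were higher and 8.11% lower. The count of Atp5l is uncertain because of its near-identical copies. Markers of other cell types moved with the same groups. Summed B cell markers were 39.9 to 227 CPM in WT and 176 to 406 in KO libraries, with 7 of 10 called higher in edgeR and a median of 2.43. Neutrophil markers were 0.621 to 2.61 and 2.10 to 58.0 CPM, with 4 of the 7 tested called higher and a median of 5.56, and macrophage markers 28.4 to 381 and 178 to 438 CPM, with 0 of 10 called and a median of 1.20. The Treg list held 7 genes, Foxp3, Il2ra, Il7r, Cd4, Cd3e, Ctla4 and Ikzf2. In the same average 0 of them passed in edgeR, with a median of -0.11, while DESeq2 and voom quality weights called Cd3e. For KO minus WT in females voom quality weights called Cd3e and Ikzf2. The part of all these markers in the Gabpa result was not tested.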

How the data were processed

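RNA sequencing of sorted Tregs gave 12 libraries in 4 groups of 3, grouped by the titles. The submitters' processing notes name HISAT2 2.0.5, Subread with featureCounts 1.5.0-p2, and edgeR, on the build GRCm38. Neither the annotation release nor the strand setting is given in these notes. The authors deposited raw counts per gene (26609 genes) and log2 values of 24584 genes. The deposited log2 values equal log2 CPM with TMM scaling and a prior count of 0.25, recomputed from the counts, to within 4.97e-14. A total of 0 other columns of sample values were left unused.

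Counts were fitted with edgeR 4.0.16 in R 4.3.3 (quasi-likelihood, TMM, 4 group means, 1 shared estimate of the spread) over the 13692 genes kept by filterByExpr, which held at least 99.8% of each library's counts. The common biological coefficient of variation was 29.3%. Genes passed at a Benjamini-Hochberg adjusted p under 0.05 over all 13692 genes. Alternatives were RLE scaling, no filter, DESeq2 1.42.0, limma 3.58.1 on the deposited log2 values or with voom weights, a replicate block, each library left out, the 4 libraries against their titled sex left out, and both WT male libraries titled number 2 summed into 1. The script was tested on simulated data with known changes. No 2 libraries of a group agreed within sampling noise. Libraries held 10200506 to 16748380 counts, and a count of 0 allows up to 0.176 to 0.291 CPM (3 counts, counting error only).

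CPM, including those of genes below the filter, use TMM library sizes. Lengths are those of the APPRIS principal transcript in GENCODE M21, which matched 92.2% of genes and all 86 members. Named genes were isoform pairs, complex II, Cycs, members not passing the filter, the highest and lowest per complex, the most and least variable, and the 3 smallest p-values per comparison. The gene levels given as examples of the shift between long and short genes were chosen after their values were seen. The members and lists were chosen with earlier results of these data known.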

Additional observations from a re-analysis of the deposited data

How the results depend on the processing

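The members' medians kept their sign in females, in WT libraries and in the interaction when 1 library was left out. They ran from 0.163 to 0.264 for KO minus WT in females, from -0.485 to -0.265 for female minus male in WT and from 0.192 to 0.449 for the interaction. For KO minus WT in males they ran from -0.238 to -0.00457, and both the average over the sexes (-0.0201 to 0.106) and female minus male in KO (-0.125 to 0.0985) crossed 0. Counts of members called ran from 0 to 6 in males, 0 to 1 for the average and 0 to 4 for female minus male in KO, each time through KO male 2, and were 0 in the others. The mean summed CPM ran from 8961 to 9331. Voom quality weights called 7 members for KO minus WT in females and 5 for female minus male in WT. Without the 4 mismatched libraries, medians moved to -0.418 for KO minus WT in males, 0.335 for female minus male in KO and 0.737 for the interaction, and Atp5e in female minus male in KO turned from -0.37 to 0.0352 (adjusted p = 0.967 in edgeR). With both WT male libraries titled number 2 summed, medians were 0.188, -0.141 and 0.0271 for KO minus WT (females, males, average), -0.377 and -0.0036 for female minus male in WT and KO, and 0.359 for the interaction, with 0 members called. The choice to leave out the mismatched libraries and the tests of single genes were made after seeing the data.

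Same-numbered libraries did not pair. Of 18 such pairs, 1 had a correlation of deviations over 0.1 (range -0.209 to 0.134), and 2 WT male titles carry the same number. With the replicate number as a block, the medians were 0.198, -0.0714 and 0.0703 for KO minus WT (females, males, average), -0.291 and 0.0056 for female minus male in WT and KO, and 0.293 for the interaction, with 0 members called. Gabpa had an adjusted p of 0.0886 under the block in edgeR.

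With 3 libraries per group, titles partly contradicted by sex-linked and Esr2 counts, and no record of which mouse each came from, small shared shifts of the members cannot be assigned to sex or genotype. Members below the filter had too few counts for a comparison.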
